A study of Mus musculus with 18 samples.

Results

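The keratin genes Krt7, Krt8, Krt18, Krt19, Krt20 and Krt23 were followed through 18 bulk RNA libraries of mouse duodenal epithelium. They were picked by symbol, as keratins of simple epithelia, and all 6 are listed in each of the 3 deposited tables, among 17759 genes for crypts, 17423 for day 1 and 17612 for day 3. In libraries labelled Mtgr1-/-, all 6 keratins were called higher than in WT at day 3 of enteroid culture, as were 29.9% of all genes. The difference ran from 1.39-fold for Krt23 to 6.39-fold for Krt20. The Krt23 groups overlapped, and its call was lost in 10 of 17 alternative analyses. In crypts, Krt23 and Krt18 were called higher, against 1.58% of all genes, and at day 1 Krt7, Krt19 and Krt20, against 30%. The calls of Krt18 in crypts and of Krt7 and Krt19 at day 1 were also lost in several alternatives.

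Keratins are the intermediate filament proteins of epithelia. A type I keratin (here Krt18, Krt19, Krt20 and Krt23) and a type II keratin (here Krt7 and Krt8) pair as obligate heteropolymers, so that filaments need both types. In the intestinal epithelium Krt8 is the main type II keratin, Krt18 and Krt19 are its common partners, and Krt20 is known as a keratin of the differentiated cells that leave the crypt. Krt7 is best known from ducts and other simple epithelia.

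The libraries came from 3 WT (Mtgr1+/+) mice and 3 mice labelled Mtgr1-/-, which lack the transcriptional corepressor MTGR1 in the whole body rather than in the epithelium alone. According to the methods of the study, the mice were age-matched littermates of both sexes, and the crypts for enteroids came from animals of 8 to 12 weeks. The sex of each library is not given. From each mouse, crypts were taken at isolation (day 0) and as enteroids 24 h (day 1) and 72 h (day 3) after plating, which gives 6 groups of 3 libraries. No group received a treatment other than plating. The series asks what loss of MTGR1 does to the crypt and to the enteroids grown from it.

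Between 22035316 and 29661084 reads lay on listed genes per library. The targeted gene is listed as Cbfa2t2. Its normalized counts in crypts were 614, 523 and 595 for WT, against 697, 466 and 534 for libraries labelled Mtgr1-/-, and no difference was called at any time (log2 difference -0.05, 0.37 and 0.06, adjusted p = 0.917, 0.0557 and 0.686, limma). These counts cover the whole gene and do not show which exons are lacking. The genotype is therefore used as labelled. All 8 markers of epithelial identity (such as Epcam and Cdh1) were tested at each time, and their summed normalized counts lay between 125509 and 256180 in all libraries. The 10 markers of stroma and vessels summed to at most 290 normalized counts in any library. The 10 immune markers summed to 15653 in crypts of WT mouse 3, against 2185 to 4666 in the other WT crypts and 731 to 2207 in crypts labelled Mtgr1-/-. In enteroids of mouse 3 labelled Mtgr1-/- the immune markers summed to 866 at day 1 and 998 at day 3. The other enteroid libraries had sums of 67.3 to 368 at day 1 and of 28.7 to 91.5 at day 3.

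The genes of the type II members and of Krt18 lie together on chromosome 15 of GRCm38, with Krt7 at 101411043 to 101430313, Krt8 at 101996698 to 102004482 on the minus strand and Krt18 at 102028180 to 102032027. Krt8 and Krt18, a filament pair, stand head to head, 23697 bp apart with 0 annotated genes between them. The other type I members lie on chromosome 11, with Krt20 at 99428403 to 99438150, Krt23 at 99477974 to 99493137 and Krt19 at 100140810 to 100148665, all on the minus strand. Of the 50-base words in the principal Krt8 transcript, 26.9% also occur in another annotated gene, the pseudogene Krt8-ps, and 0.720% of those of Krt18 occur in the genes Gm17847 and Gm5200. Reads on Krt8 may therefore have been split with that copy.

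The sequences before the start sites are shown for Krt20 and Krt7, which differed most between genotypes at day 3, and for Krt23, which differed most in crypts. Each is the 150 bases upstream of the RefSeq start (GRCm38.p6), read 5′ to 3′ on the strand of the gene. Capitals mark matches on either strand to TATAAA, known as the TATA box, to GGGCGG, the core of the GC box, or to TTTATG, a site of CDX factors. The stretches are chr11:99438154-99438303 for Krt20 (minus), chr15:101412253-101412402 for Krt7 (plus) and chr11:99493121-99493270 for Krt23 (minus).
Krt20: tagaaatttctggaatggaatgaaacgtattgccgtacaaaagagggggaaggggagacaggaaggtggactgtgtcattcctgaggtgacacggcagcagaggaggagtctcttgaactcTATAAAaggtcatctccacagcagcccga
Krt7: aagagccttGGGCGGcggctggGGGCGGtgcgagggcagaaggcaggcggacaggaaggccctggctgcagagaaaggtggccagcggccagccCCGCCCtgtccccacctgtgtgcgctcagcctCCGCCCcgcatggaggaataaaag
Krt23: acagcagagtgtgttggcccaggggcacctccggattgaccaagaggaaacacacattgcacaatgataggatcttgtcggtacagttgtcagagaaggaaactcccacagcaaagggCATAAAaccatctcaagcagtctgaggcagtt

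The Krt20 stretch holds TATAAA with its first base at position -29 from the start, letters that occur in 13.6% of 32851 RefSeq promoter windows of the same build (250 bases before to 50 after the start). The Krt7 stretch holds GGGCGG 4 times (first bases at -141, -128, -56 and -24), and 35.7% of all windows hold it. Its GENCODE model also has transcripts that begin further upstream. The Krt23 stretch holds TTTATG on the opposite strand, with its first base at -32, and 11.9% of windows hold it. The letters TGANTCA, the usual AP-1 motif, occur in 7.81% of windows and were not in the windows of Krt7, Krt8, Krt18, Krt20 or Krt23. In the Krt8 window TATAAA lies across the start itself, at -1, and overlaps its match on the opposite strand at -3. These matches describe the letters only.

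Per transcript length, Krt8 was the most abundant of the 6 in each group, and Krt23 the least in all groups but crypts labelled Mtgr1-/-, where Krt7 and Krt23 overlapped. In WT crypts the levels, as counts per 1000000 listed counts (CPM) per kilobase of the principal transcript, were 1169 ± 170.1 (SD, n = 3) for Krt8, 816 ± 47.5 for Krt19, 541 ± 56.7 for Krt20, 120 ± 10.8 for Krt18, 11.2 ± 1.67 for Krt7 and 2.16 ± 0.109 for Krt23. The 3 libraries of neighbouring keratins in this order did not overlap. In WT enteroids at day 3, Krt20 stood at 56.6 ± 7.57 on the same scale and Krt7 at 46.6 ± 5.91, and these neighbours did overlap. At that time Krt8 stood at 1020 ± 67.3, Krt19 at 791 ± 54.7 and Krt18 at 288 ± 15.9. The length used for Krt7, 4094 bases, runs past the end of its RefSeq gene, so its place in this order is uncertain.

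**Figure D1:**
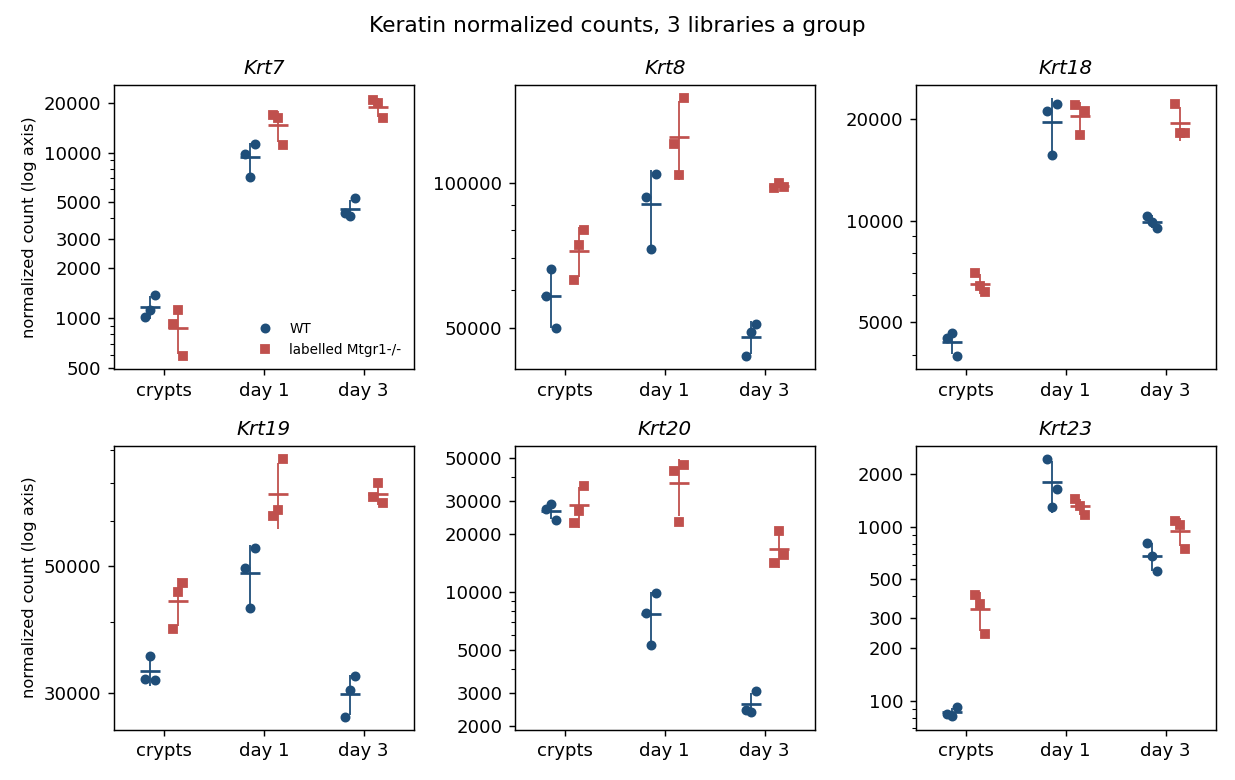
Normalized counts of each keratin (vertical log axis) in crypts, day 1 and day 3 enteroids. Points are the 3 libraries of a group, WT as circles and those labelled Mtgr1-/- as squares; the horizontal bar is the mean and the vertical bar 1 SD. At day 3 the squares lie above the circles for all keratins but Krt23, whose groups overlap. The tables of the 3 times were normalized separately.

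Genotypes were compared within each time with limma on log2(normalized count + 1), and adjusted p-values are those of this test over all genes with a mean of at least 10 unless another tool is named. In bulk RNA, fewer cells of a type and less RNA per cell cannot be told apart. In crypts, Krt23 and Krt18 were called, 2 of 6 keratins, where 4.73% of 12980 genes were called in either direction and 1.58% as higher.

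Krt23, the rarest of the 6 in WT crypts, had normalized counts of 84.3, 82.2 and 92.1 in WT crypts and of 406, 360 and 242 in crypts labelled Mtgr1-/-. The latter all lay above the WT crypts, and the log2 difference was 1.92 (SE 0.22, adjusted p = 0.00570, limma). This call was made in each of the 17 alternatives, with a log2 difference of 1.77 to 2.14. The level in the library of mouse 3 labelled Mtgr1-/- was the nearest to WT.

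Krt18 had normalized counts of 4496, 4628 and 3969 in WT crypts and 6986, 6393 and 6127 in crypts labelled Mtgr1-/-. The groups did not overlap, with a log2 difference of 0.58 (SE 0.10, adjusted p = 0.0237, limma). The call was lost without WT mouse 1 (adjusted p = 0.105), without WT mouse 2 (0.0778), without mouse 1 (0.0865) or mouse 3 (0.0511) labelled Mtgr1-/-, with no trend (0.0506) and with edgeR, which did not use WT mouse 2 (0.0938), always with a log2 difference between 0.52 and 0.62.

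The main pair partners were not called in crypts. Krt8, the chief type II keratin, had 58135, 66271 and 50061 normalized counts in WT and 62963, 74338 and 79923 in crypts labelled Mtgr1-/- (log2 difference 0.32, 95% interval -0.14 to 0.77, adjusted p = 0.436, limma). Krt19 had 31665, 34859 and 31618 in WT, against 38735, 45046 and 46679 with the label Mtgr1-/-. These 2 sets did not overlap, which held in either direction for 25.5% of genes, but the difference was not called (log2 0.41, SE 0.14, adjusted p = 0.183, limma; DESeq2, without WT mouse 2, gave adjusted p = 0.0116).

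Krt20, the keratin of differentiated cells, was alike in range in both crypt groups, with 26984, 28740 and 23720 normalized counts in WT and 22820, 26526 and 35872 in crypts labelled Mtgr1-/- (log2 difference 0.08, 95% interval -0.37 to 0.53, adjusted p = 0.874, limma). Krt7 had 1014, 1118 and 1385 in WT, against 921, 1116 and 588 with the label Mtgr1-/- (log2 difference -0.46, 95% interval -1.03 to 0.12, adjusted p = 0.377, limma).

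At day 1, Krt20, Krt7 and Krt19 were called higher, 3 of 6 keratins, where 58.9% of 12587 genes were called in either direction and 30% as higher. Krt20 stood apart in size. Its normalized counts were 7786, 5306 and 9942 in WT and 42601, 23097 and 46071 in enteroids labelled Mtgr1-/-, with no overlap and a log2 difference of 2.26 (SE 0.31, adjusted p = 0.000764, limma). The lowest of the latter was still above the highest WT library.

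For Krt7, day 1 counts were 9762, 7125 and 11242 in WT and 16987, 16205 and 11099 in enteroids labelled Mtgr1-/-. Mouse 3 of the latter lay within the WT range, and the log2 difference was 0.66 (SE 0.21, adjusted p = 0.0292, limma). Krt19 had 49706, 42242 and 53716 in WT, against 61111, 62773 and 77165 with the label Mtgr1-/-, without overlap (log2 difference 0.46, SE 0.16, adjusted p = 0.0368, limma). Krt19 and Krt20 were thus the keratins whose groups did not overlap at day 1, which held for 68.1% of genes in either direction and for 34.2% with every library labelled Mtgr1-/- above every WT library.

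The day 1 calls of Krt7 and Krt19 were lost in several alternatives, with a log2 difference of 0.47 to 0.70 for Krt7 and of 0.36 to 0.54 for Krt19 in those that left out a mouse. That of Krt7 was lost without WT mouse 1 (adjusted p = 0.0585, limma) or 2 (0.0938), without mouse 1 (0.0977) or 2 (0.0602) labelled Mtgr1-/-, and with no trend (0.0563). That of Krt19 was lost without any 1 WT mouse (adjusted p = 0.0590 to 0.125, limma), without mouse 1 (0.0559) or 3 (0.126) labelled Mtgr1-/-, and with no filter (0.0518).

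Krt8 had 93489, 72834 and 104659 normalized counts in WT at day 1 and 120504, 104097 and 150457 in enteroids labelled Mtgr1-/- (log2 difference 0.47, SE 0.22, adjusted p = 0.0972, limma). With the mouse number as a block, which pairs WT and labelled Mtgr1-/- libraries of 1 number, Krt8 was called (adjusted p = 0.0142, limma), and so it was without mouse 2 labelled Mtgr1-/- (0.0354) and by DESeq2 (0.0186). Krt18, by contrast in size, had 21061, 15592 and 22108 in WT, against 22044, 17907 and 21083, a log2 difference of 0.07 (95% interval -0.30 to 0.43, adjusted p = 0.736, limma). Krt23 had 2464, 1304 and 1638 in WT, against 1450, 1311 and 1176 with the label Mtgr1-/- (log2 difference -0.41, 95% interval -0.91 to 0.09, adjusted p = 0.133, limma). Without WT mouse 1 it was -0.16 (adjusted p = 0.384, limma), and without WT mouse 2 Krt23 was called lower (-0.62, adjusted p = 0.0327).

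The moderate day 1 differences depended on the scaling. The summed normalized counts of all listed genes were 1.25 times as high in day 1 libraries labelled Mtgr1-/- as in WT, without overlap, against 1.15 times at day 3 and 0.981 times in crypts. Scaled to the library total, the median of all genes moved to a log2 difference of -0.33 at day 1 and -0.20 at day 3, and the share of calls that were higher was 28.2% instead of 50.9% at day 1, and 35.1% instead of 50.7% at day 3. On that scale Krt7 (0.33, adjusted p = 0.209, limma) and Krt19 (0.14, adjusted p = 0.353) were not called at day 1 and Krt23 was called lower (-0.73, adjusted p = 0.0132), all relative to a scale that moved most genes down. Under quantile normalization Krt18 was called lower at day 1 (-0.34, adjusted p = 0.0430, limma), Krt7 was not called (0.27, adjusted p = 0.292) and Krt19 turned to -0.17 (adjusted p = 0.368). Krt20 was called under each of the 17 day 1 alternatives, with a log2 difference of 1.81 to 2.58.

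**Figure D2:**
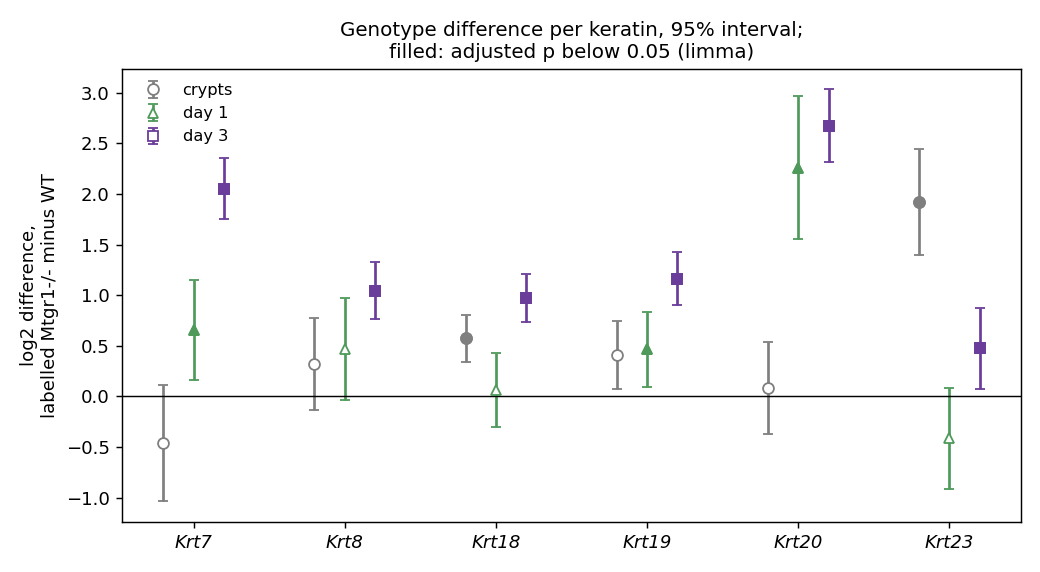
Log2 difference between the libraries labelled Mtgr1-/- and WT (vertical axis) for each keratin in crypts (circles), day 1 (triangles) and day 3 (squares), with its 95% interval from limma; filled symbols had an adjusted p below 0.05. At day 3 all 6 symbols are filled and above 0, led by Krt20 at 2.68 and Krt7 at 2.05, while in crypts the highest symbol is Krt23 at 1.92.

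At day 3, 6 of 6 keratins were called higher, where 59% of 12782 genes were called in either direction and 29.9% as higher. Krt20 had 2439, 2366 and 3046 normalized counts in WT and 14146, 20725 and 15699 in enteroids labelled Mtgr1-/- (log2 difference 2.68, SE 0.16, adjusted p = 1.28e-05, limma). Krt7, the minor type II keratin, followed with 4294, 4151 and 5291 in WT, against 20867, 19926 and 16162 (log2 difference 2.05, SE 0.13, adjusted p = 1.76e-05, limma). For both, even the lowest library labelled Mtgr1-/- was far above all WT libraries.

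The 3 abundant keratins were about double at day 3. Krt8 had 43723, 48964 and 50975 normalized counts in WT and 97787, 100098 and 98254 in enteroids labelled Mtgr1-/-, a log2 difference of 1.05 (SE 0.12, adjusted p = 0.000275, limma). Krt19 had 27241, 30314 and 32046 in WT, against 66047, 69886 and 64568, a log2 difference of 1.16 (SE 0.11, adjusted p = 0.000113, limma). Krt18 had 10344, 9932 and 9493 in WT, against 22105, 18205 and 18186, a log2 difference of 0.97 (SE 0.10, adjusted p = 0.000172, limma). None of these 3 overlapped between groups, which held for 68.8% of genes at this time, and 34.6% of genes had every library labelled Mtgr1-/- above every WT library.

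Krt23 was the exception in firmness at day 3. Its normalized counts were 806, 682 and 560 in WT and 1085, 1020 and 749 in enteroids labelled Mtgr1-/-, so that mouse 3 of the latter lay below WT mouse 1 (log2 difference 0.48, SE 0.17, adjusted p = 0.0448, limma). This call was lost in 10 of 17 alternatives, among them edgeR (adjusted p = 0.0892) and DESeq2 (0.0732), neither of which used mouse 2 labelled Mtgr1-/-, scaling to the library total (0.227), and leaving out WT mouse 2 (0.102) or 3 (0.153) or mouse 1 (0.115) or 2 (0.0965) labelled Mtgr1-/-. The other 5 keratins were called in all 17.

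Whether the genotype difference itself changed between times was tested with all 18 libraries and the mouse as a random effect. From crypts to day 1, it changed for 4 of 6 keratins, where 41.4% of 12145 genes were called. It was larger at day 1 for Krt20 (by 2.18 on the log2 scale, SE 0.37, adjusted p = 0.00120, limma) and Krt7 (1.11, SE 0.32, adjusted p = 0.0136), and smaller for Krt23 (-2.33, SE 0.32, adjusted p = 0.000427) and Krt18 (-0.51, SE 0.18, adjusted p = 0.0332). The Krt18 change was not called without WT mouse 1 (adjusted p = 0.120) or 3 (0.182) or without mouse 1 (0.0646), 2 (0.0767) or 3 (0.0665) labelled Mtgr1-/-, nor that of Krt7 without WT mouse 2 (0.0672), without mouse 1 labelled Mtgr1-/- (0.0580), with quantile normalization (0.0725) or scaled to the library total (0.0888). Krt8 (0.15, 95% interval -0.37 to 0.67, adjusted p = 0.650) and Krt19 (0.06, 95% interval -0.33 to 0.44, adjusted p = 0.823) were not called.

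From crypts to day 3, the change was called for 5 of 6 keratins, against 31.6% of genes. It was 2.60 (SE 0.37, adjusted p = 0.000472, limma) for Krt20, 2.51 (SE 0.32, adjusted p = 0.000281) for Krt7, 0.76 (SE 0.18, adjusted p = 0.00820) for Krt19, 0.73 (SE 0.25, adjusted p = 0.0354) for Krt8 and -1.44 (SE 0.32, adjusted p = 0.00574) for Krt23. The Krt8 change was not called without WT mouse 1 (adjusted p = 0.150) or 2 (0.111), without mouse 1 (0.123) or 2 (0.0538) labelled Mtgr1-/-, with quantile normalization (0.163) or scaled to the library total (0.0788), nor that of Krt19 without WT mouse 1 (0.0537) or with quantile normalization (0.414). For Krt18 the value was 0.39 (95% interval 0.01 to 0.78, adjusted p = 0.104). Between day 1 and day 3, 0 of 6 keratins and 0.0329% of genes were called. At an unadjusted p below 0.05, 5 of the 6 passed (all but Krt20), as did 7.23% of all genes. Krt7 had the largest value there, 1.4 (SE 0.32, adjusted p = 0.135, limma), followed by Krt18 at 0.90 (SE 0.18, adjusted p = 0.0786).

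CPM, a keratin's counts per 1000000 counts on listed genes, gives its level within a library and can be set side by side over time, here as a description. In WT, Krt20 went from 1042 ± 109 CPM (SD, n = 3) in crypts to 321 ± 95 at day 1 and 109 ± 14.6 at day 3, which is 9.55-fold lower and lower in 3 of 3 mice at each step. In mice labelled Mtgr1-/- it stood at 1130 ± 189, 1233 ± 335 and 608 ± 84.1. Krt20 at day 1 was thus near its crypt level in the latter, with 2 of 3 mice above it.

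The other 5 keratins were higher at day 1 than in crypts in 3 of 3 mice of either genotype. In WT this peak was followed by a lower level at day 3 for all 5. Over the 3 times, WT Krt7 stood at 46.0, 393 and 191 CPM, and WT Krt18 at 172, 820 and 414. In mice labelled Mtgr1-/-, Krt7 stood at 35.7, 500 and 690, higher at day 3 than at day 1 in 3 of 3 mice, while Krt18 stood at 262, 681 and 712. Krt23 had the widest span in WT, 3.39, 75.0 and 28.5 CPM (22.1-fold higher at day 1 than in crypts), against 13.7, 44.2 and 34.6 in mice labelled Mtgr1-/-.

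For Krt8 and Krt19, day 3 in WT was close to the crypt level. Krt8 stood at 2288, 3785 and 1997 CPM in WT and at 2900, 4178 and 3587 in mice labelled Mtgr1-/-. Krt19 stood at 1286, 2036 and 1246 in WT and at 1744, 2251 and 2427 with the label Mtgr1-/-. In the latter, both genes were higher at day 3 than in crypts in 3 of 3 mice.

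**Figure D3:**
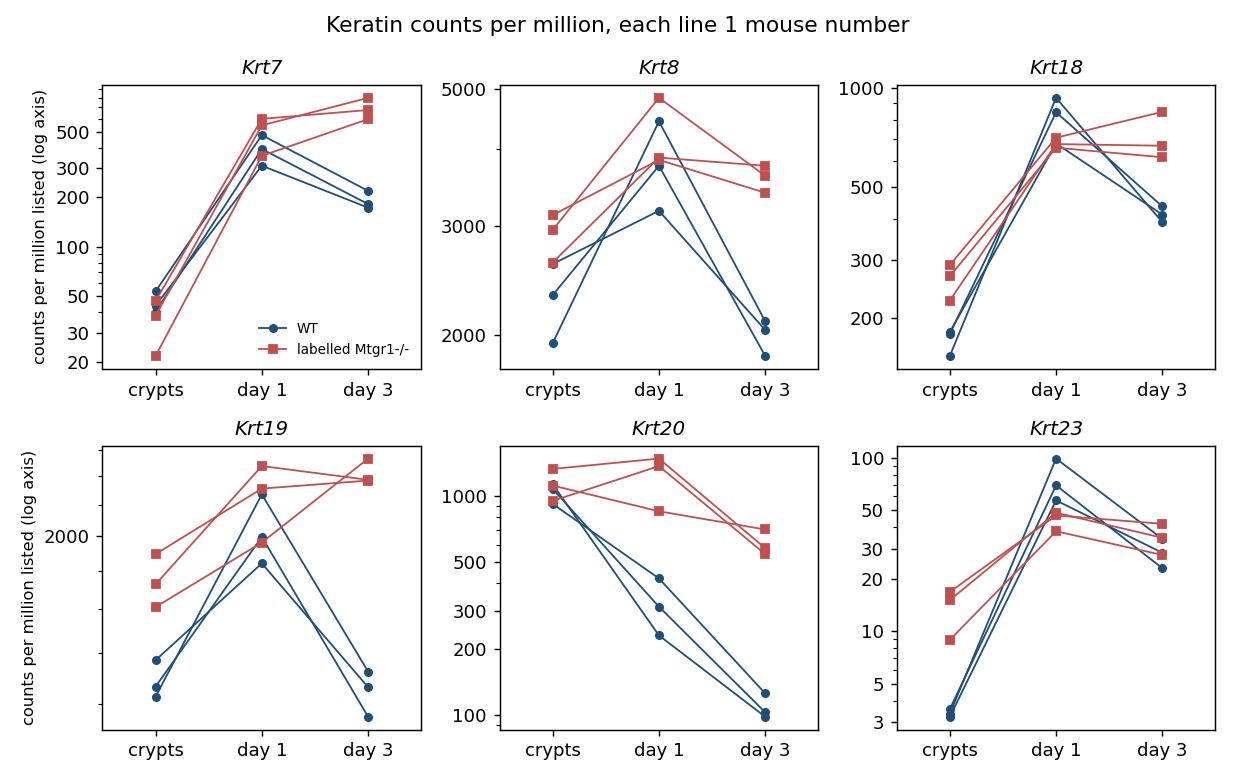
CPM of each keratin (vertical log axis) in crypts, at day 1 and at day 3. Each line joins the libraries of 1 mouse, WT as circles and mice labelled Mtgr1-/- as squares. In WT, Krt20 is lower at each later time, from a mean of 1042 to 109, and the other keratins peak at day 1; the squares lie above the circles at day 3 for all but Krt23, where they overlap.

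Together the 6 keratins made up 0.484% ± 0.0520 (SD, n = 3) of the listed counts in WT crypts and 0.609% ± 0.0495 in crypts labelled Mtgr1-/-, without overlap. At day 1 they made up 0.743% ± 0.115 and 0.889% ± 0.0847, with overlap, and at day 3 0.399% ± 0.0215 and 0.806% ± 0.0402, without overlap. With 3 libraries against 3 the smallest p that an exact two-sided permutation test can give is 0.1, which was its value for crypts and day 3; at day 1 it was 0.3. On the scale of normalized counts the sums overlapped in crypts (exact permutation p = 0.2) and did not at day 1, where they were 1.5 times as high with the label Mtgr1-/- (exact permutation p = 0.1).

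Within that sum, type II keratins held 48.1% ± 1.63 in WT crypts and 48.2% ± 0.782 in crypts labelled Mtgr1-/- (exact permutation p = 1). At day 1 they held 56.1% ± 0.823 and 52.6% ± 0.717, and at day 3 54.9% ± 0.744 and 53.1% ± 0.744, without overlap at either time (exact permutation p = 0.1 for each, the smallest possible; 7 keratin items were compared at each of 3 times, so none of these p-values would pass an adjustment). No library lay below 46.4% or above 57.0%.

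The make-up within the types differed more. Krt20 held 21.5% ± 0.453 of the sum in WT crypts and 18.5% ± 2.28 in the others, 4.26% ± 0.609 and 13.8% ± 3.11 at day 1, and 2.73% ± 0.275 and 7.58% ± 1.34 at day 3. Krt7 held 4.79% ± 0.458 in WT at day 3 and 8.54% ± 0.922 in enteroids labelled Mtgr1-/-, while Krt8 held 50.1% ± 0.802 and 44.5% ± 1.29. For these 3 genes the libraries did not overlap at day 3. Krt18 held 11.03% ± 0.345 in WT and 7.71% ± 0.758 in the others at day 1.

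The ratio of Krt8 to Krt18 counts was lower in culture than in crypts. There were 13.3 ± 0.908 (SD, n = 3) Krt8 counts per Krt18 count in WT crypts and 11.2 ± 2.05 in the others, which overlapped. At day 1 the ratio was 4.61 ± 0.155 and 6.14 ± 0.881 without overlap, and at day 3 it was 4.84 ± 0.576 and 5.11 ± 0.595 with overlap. The ratio of Krt19 to Krt8 moved little by comparison, from 0.567 ± 0.0563 in WT crypts to 0.624 ± 0.00480 in WT and 0.677 ± 0.0205 in enteroids labelled Mtgr1-/- at day 3.

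**Figure D4:**
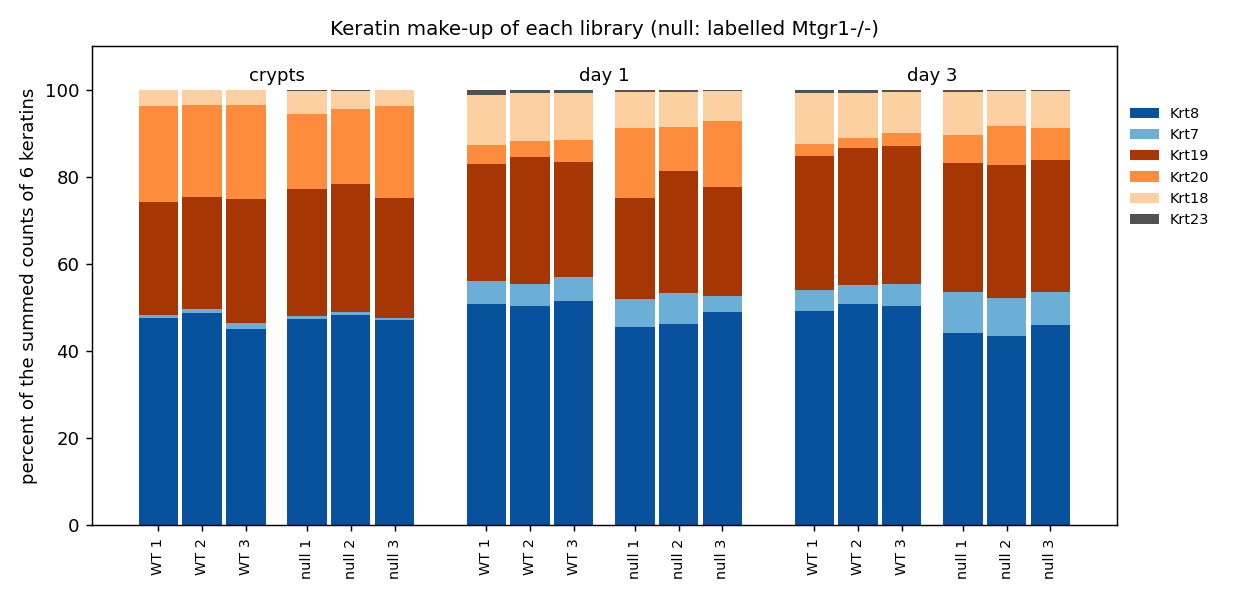
Share of each keratin in the summed counts of the 6 keratins (vertical axis, percent) in each of the 18 libraries, with type II keratins (Krt8, Krt7) at the bottom in blue and type I above. The type II share stays between 46.4% and 57.0% in all libraries, while Krt20 takes 17.2% to 22.0% in crypts and at most 16.1% in enteroids.

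Of the rest of the keratin family, 20 genes were listed in crypts and 25 at day 1 and at day 3, nearly all at very few counts. Of those with a mean of at least 10, 0 of 5 were called in crypts (0 also by edgeR and DESeq2, and 0 at an unadjusted p below 0.05), 0 higher and 2 lower of 5 at day 1, and 3 higher and 1 lower of 8 at day 3. Of all genes, 58.9% were called in either direction at day 1 and 59% at day 3. The called share of these other keratins was thus below that of all genes at both times. Krt4, a type II keratin of the lining of the mouth and oesophagus, had 31.4, 13.4 and 50.3 normalized counts in WT at day 3 and 479, 324 and 213 in enteroids labelled Mtgr1-/- (log2 difference 3.48, SE 0.47, adjusted p = 0.000542, limma). Krt79 was also higher (2.32, adjusted p = 0.00222), at a mean of 61.4 normalized counts, and Krt87 was lower at day 3 (-1.61, adjusted p = 0.00332). The third rise at day 3, Krt14, a basal-layer keratin of the epidermis, and Krt87 at day 1 passed the filter only through the group where they were high, so their part in these counts was set by it. Krt14 had means of 4.22 in WT and 19.0 in the others, and Krt87 of 27.6 and 3.70. The other fall at day 1, Krt10 (-0.82, adjusted p = 0.0284), was lost without any 1 WT mouse (adjusted p = 0.0513 to 0.0963, limma), without mouse 1 labelled Mtgr1-/- (0.0889), with quantile normalization (0.0890) and by DESeq2 (0.0671).

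Genes that tie keratin filaments to membranes, the plakins, desmosomal proteins and the partner integrins, were mostly higher at day 3 in enteroids labelled Mtgr1-/-. Of 16, all tested, 1 was higher and 1 lower in crypts, 9 higher and 2 lower at day 1, and 12 higher and 1 lower at day 3, where 1.58%, 30% and 29.9% of all genes were called higher. Their median log2 difference was 0.21, 0.42 and 0.57, against 0.01, -0.01 and 0.00 over all genes. Plec, the plakin that links filaments to hemidesmosomes, had 2764, 2531 and 2996 normalized counts in WT at day 3 and 8648, 9071 and 7469 in enteroids labelled Mtgr1-/- (log2 difference 1.60, SE 0.10, adjusted p = 1.70e-05, limma). It was also called at day 1 (1.19, adjusted p = 0.000969). Scaled to the library total, 5 were higher and 3 lower at day 1, and 10 higher and 2 lower at day 3.

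Periplakin, Ppl, was the linker gene called higher in crypts, with 259, 353 and 242 normalized counts in WT and 1016, 1489 and 1618 in crypts labelled Mtgr1-/- (log2 difference 2.26, SE 0.22, adjusted p = 0.00291, limma). It was called at day 1 (0.92, adjusted p = 0.00130) and day 3 (1.46, adjusted p = 7.59e-05) too. Dst, another plakin, was higher at day 1 (0.97, adjusted p = 0.00136) and day 3 (1.45, adjusted p = 0.000766). Eppk1, which binds keratin filaments, was lower at day 1 (-0.63, adjusted p = 0.00108).

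The largest difference in this group went the other way. Pkp1, the plakophilin best known from stratified epithelia, had 1172, 1102 and 873 normalized counts in WT crypts and 144, 99.9 and 64.0 in crypts labelled Mtgr1-/- (log2 difference -3.40, SE 0.29, adjusted p = 0.00178, limma). It was lower at day 1 (-4.89, adjusted p = 1.75e-05) and day 3 (-3.68, adjusted p = 6.52e-06) as well. Its relatives Pkp2 (0.32, adjusted p = 0.00828) and Pkp3 (0.80, adjusted p = 0.000280) were higher at day 3, Pkp2 not when scaled to the library total (0.11, adjusted p = 0.191) or with quantile normalization (0.18, adjusted p = 0.0502), and Pkp4 was not called (0.16, adjusted p = 0.227).

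**Figure D5:**
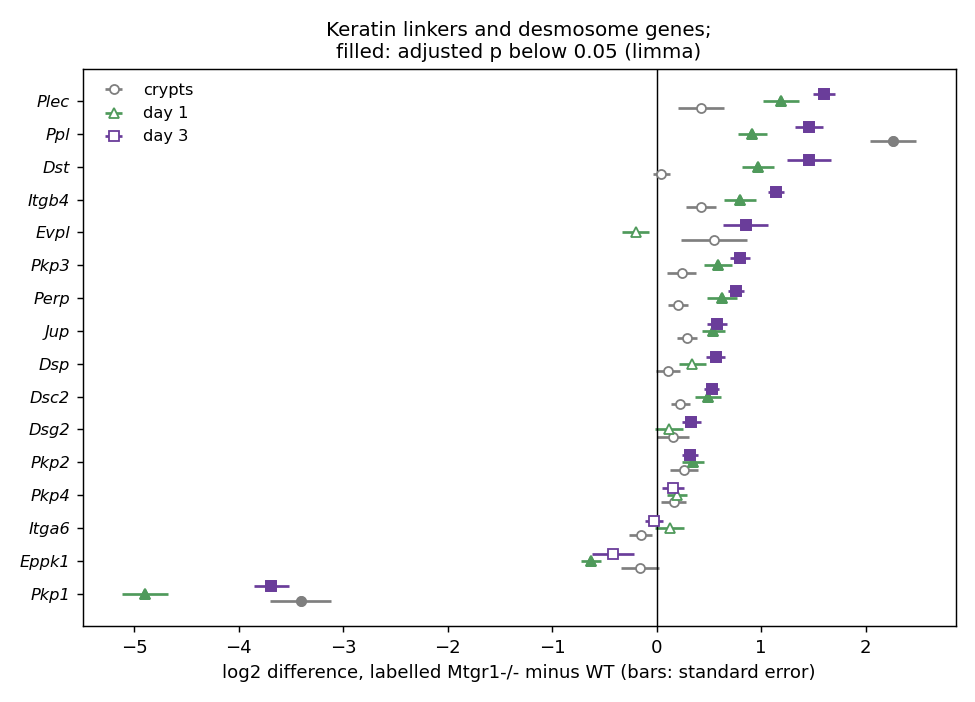
Log2 difference between the libraries labelled Mtgr1-/- and WT (horizontal axis, bars are the standard error) of 16 keratin linker and desmosome genes in crypts (circles), at day 1 (triangles) and at day 3 (squares); filled symbols had an adjusted p below 0.05 in limma. Most filled symbols lie above 0, led at day 3 by Plec at 1.60, and Pkp1 stands alone near -3 to -5.

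Of 18 genes that modify or turn over keratins (such as kinases, 14-3-3 proteins and transglutaminase), 0 were called in crypts (0 also by edgeR and DESeq2, and 2 at an unadjusted limma p below 0.05), 8 were higher and 2 lower at day 1, and 8 higher and 4 lower at day 3. The 10 called at day 1 and 12 at day 3 stand beside 58.9% and 59% of all genes, so that the day 1 share was near that of all genes. Sfn, a 14-3-3 protein, was higher at day 3 (1.23, adjusted p = 3.84e-05, limma), as was Sqstm1, a component of keratin aggregates (1.08, adjusted p = 9.04e-05). Tgm2, which crosslinks keratins, was lower at day 1 (-0.49, adjusted p = 0.00508) and day 3 (-0.47, adjusted p = 0.0171; 0.0600 without WT mouse 2). Scaled to the library total, 5 were higher and 6 lower at day 1.

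Of the intermediate filament genes outside the keratins, more were called lower than higher in enteroids labelled Mtgr1-/-. Of 16 fixed genes, 7 passed the filter on low values in crypts, 7 at day 1 and 9 at day 3, with 1, 5 and 5 lower and 0, 1 and 1 higher. Of all genes, 4.73% were called in either direction in crypts, 58.9% at day 1 and 59% at day 3. Vim, the filament of mesenchymal cells, was lower at day 1 (-3.44, adjusted p = 0.00418, limma). At day 3 its call (-3.09, adjusted p = 0.0354) was lost without any 1 WT mouse (0.0818 to 0.0894), without mouse 2 labelled Mtgr1-/- (0.0661), with no trend (0.0716), by edgeR (0.160) and by DESeq2 (0.464). The day 3 call of Bfsp1 as lower was lost without any 1 WT mouse (adjusted p = 0.0591 to 0.0812, limma). It was also lost without mouse 1 (0.0553) or 2 (0.0562) labelled Mtgr1-/-, by edgeR (0.0752) and by DESeq2 (0.175). Nefm, a neurofilament with a mean of 22.2 normalized counts in WT crypts, passed the filter only through WT, so its call at each time was set by it. Lmna, the nuclear lamin of differentiated cells, was the 1 gene called higher, by 0.84 at day 3 (adjusted p = 0.00102) and by 0.51 at day 1 (adjusted p = 0.0325). The day 1 call of Lmna was lost without WT mouse 1 (adjusted p = 0.105, limma) or 2 (0.110), without mouse 1 (0.0559) or 3 (0.0974) labelled Mtgr1-/-, with no trend (0.0638), with quantile normalization (0.182) and scaled to the library total (0.340).

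Of 23 transcription factors of the intestinal epithelium, 0 were called in crypts (0 also by edgeR and DESeq2, and 3 at an unadjusted limma p below 0.05), 10 higher and 7 lower at day 1, and 8 higher and 7 lower at day 3. Of all genes 58.9% and 59% were called at these times, and scaled to the library total 5 of the factors were higher and 8 lower at day 1, and 6 higher and 7 lower at day 3. Maf, a factor of the mature villus enterocyte, was higher at day 1 (2.01, adjusted p = 0.000135, limma) and day 3 (1.97, adjusted p = 5.08e-05). Ehf was lower (-2.18 and -1.53, adjusted p = 7.87e-05 and 0.000211), as was Foxa2 (-2.68 and -2.03, adjusted p = 7.48e-05 and 0.000280).

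Markers of cell types moved beside the keratins. Of 15 enterocyte genes, 0 were higher and 2 lower in crypts, 14 higher and 1 lower at day 1, and 14 higher and 0 lower at day 3. Their summed normalized counts at day 3 lay between 378651 and 424947 in WT and between 729115 and 1302970 in enteroids labelled Mtgr1-/-. Sis, the sucrase-isomaltase gene, went against the list in crypts (-4.51, adjusted p = 0.00285, limma) and at day 1 (-2.59, adjusted p = 0.00151). Of 11 stem and cycling genes, 0, 10 and 11 were lower at the 3 times and 0 higher, and in crypts 0 passed an unadjusted limma p of 0.05 or were called by edgeR or DESeq2.

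Secretory markers were far lower in libraries labelled Mtgr1-/-. In crypts 4.73% of all genes were called in either direction, against 58.9% at day 1 and 59% at day 3. All 8 listed goblet genes and all 10 enteroendocrine genes were lower at each time, and 0, 8 and 8 of 8 Paneth genes. At day 1 the enteroendocrine genes summed to 8666 to 11529 normalized counts in WT and to 93.3 to 225 in the others. Genes this low in the latter could pass the filter through WT alone. In crypts the 8 Paneth genes passed an unadjusted limma p of 0.05, and 0 were called by edgeR and 1 by DESeq2. Mouse 2 labelled Mtgr1-/- stood apart there, with a sum of 44822 normalized counts against 1832 and 1387 in the other mice so labelled and at least 127648 in WT, and without it 7 of 8 were called lower. In crypts, the goblet genes summed to between 151712 and 174560 normalized counts in WT and to between 4769 and 7727 in the others, and no listed marker was at 0 in every library. Of 12 genes of the injured or fetal-like epithelium, 10 were tested in crypts, where 0 were higher and 1 lower. In crypts 4 passed an unadjusted limma p of 0.05, and 0 were called by edgeR and 3 by DESeq2. All 12 were tested in enteroids, with 9 higher at day 1 and 12 higher at day 3. Of all genes 1.58%, 30% and 29.9% were called higher. The crypt fall, Anxa3, was lost in several alternatives, such as quantile normalization (adjusted p = 0.162, limma), the replicate block (0.0568) and edgeR (0.123). In crypts the 12 genes summed to between 17396 and 22054 normalized counts in WT and between 24131 and 30724 in the others. Clu was the foremost at day 3 together with Il1rn (4.30 and 4.33, adjusted p = 7.02e-06 and 4.36e-06, limma). The part of such shifts in cell make-up in the keratin differences was not tested.

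Of the other cell lists, 1 of 9 tuft genes tested was called higher in crypts, and this gene, Gfi1b, passed the filter only through the libraries labelled Mtgr1-/-. The 9 tuft genes had a median log2 difference of 1.85 in crypts, and 9 passed an unadjusted limma p of 0.05, with 0 called by edgeR and 5 by DESeq2. Their sums lay between 1589 and 2111 normalized counts in WT crypts and between 2588 and 9012 in the others. At day 1 and at day 3, 4 of 8 tuft genes were lower, where 58.9% and 59% of all genes were called in either direction. All 4 day 1 calls were lost without WT mouse 1 (adjusted p = 0.0535 to 0.107, limma). At day 3 DESeq2 called 2. Among immune genes 0 of 10 were called in crypts by limma (2 at an unadjusted p below 0.05; 0 by edgeR and 3 by DESeq2), 1 of 7 was higher at day 1 and 1 of 4 at day 3, in both cases Csf1r, which passed the filter only through enteroids labelled Mtgr1-/-. For stomach and Brunner gland 0 of 1, 2 of 3 (both lower) and 2 of 3 (1 in each direction) were called, and for pancreas 0 of 2, 1 of 2 and 1 of 2 (higher), all at low counts. For stroma and vessels 1 gene was tested at each time and not called. Among the 8 epithelial identity genes 1, 7 and 7 were higher, led by Vil1, the microvillus protein villin, at day 1 (1.18, adjusted p = 0.00106, limma) and day 3 (1.05, adjusted p = 0.000226). Scaled to the library total, 0, 1 and 3 of these 8 were higher.

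The gene whose pattern was most like that of Krt8, over the 18 libraries and 12144 other genes, was Krt19, with a root mean square difference of 0.0865 between their log2 values after each was centred within its table. The next were Pkp3 (0.102), a desmosomal plakophilin, and Anxa7 (0.112). Krt7 was nearest to Mfsd4a (0.225), Pmepa1 (0.247) and Srgap1 (0.310), and Krt18 to Btc (0.161), Mpzl3 (0.167) and Tjp1 (0.175). Krt20 was nearest to Cyp3a13 (0.221), Cidec (0.230) and Gm3776 (0.270), and Krt23 to Arl6 (0.250), Grasp (0.318) and Ass1 (0.362). Beside Krt8, Krt19 was nearest to 1110008P14Rik (0.118) and S100a10 (0.128). These values describe likeness over libraries that share mice and genotype.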

How the data were processed

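RNA was measured in 18 libraries. The authors made stranded mRNA libraries, trimmed single reads with fastp 0.20.0, quantified them with Salmon 1.3.0 against a GENCODE mouse transcriptome and compared genotypes with DESeq2 1.26.0. Each deposited signal is a gene's count after division by a factor of its library, set separately for the table of each time. The authors also deposited a mean signal, log2 fold changes with standard errors, a Wald score and p-values with their adjusted form, which were not used.

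Groups and mouse numbers came from the labels. The test was limma 3.58.1 (trend) in R 4.3.3 on log2(normalized count + 1), over genes whose mean reached 10, with 3 mice per genotype. It was two-sided, with adjustment by Benjamini and Hochberg over all genes of a time and a threshold of 0.05. This fold scale understates changes of low genes. Changes of the genotype difference used all 18 libraries with the mouse as random effect (within-mouse correlation -0.00481). Low values move in steps, 1 step per read, from which whole reads were recovered. In each library 100% of values were whole multiples of its step, within 0.01, but 2 libraries (WT crypts 2 and day 3 labelled Mtgr1-/- 2) had a step too near 1 to be sure. Count tests, with edgeR 4.0.16 or DESeq2 1.42.0, did not use these 2. Deviations from the group mean were compared by correlation between WT and labelled Mtgr1-/- libraries of the same number. The values were 0.116 to 0.231 at day 1, 0.0764 to 0.346 in crypts and -0.0156 to -0.00226 at day 3. For different numbers they were -0.19 to -0.0152 at day 1 and -0.302 to 0.201 in crypts. The labels do not say whether a number pairs the genotypes. The main tests did not pair them, and the replicate block was run as an alternative. Within a time each library is 1 mouse, so p-values of those tests measure the spread between mice. The tests of change pooled all 18 libraries, with 1 from each mouse at each time, so their spread is not that between mice alone.

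Named genes are the 6 keratins, Cbfa2t2, up to 3 rises and 3 falls per list and time, and the 3 genes most alike each keratin; of these, some are given. Other desmosomal genes, Pkp2 and Pkp4, as well as Bfsp1, Gm17847 and Gm5200 were named after their values were seen. The members and the gene lists were chosen with earlier results of these data known. The main limma fits of the genotype difference and of its change between times were tested on simulated data. The simulation gave every gene the same relative spread and no effect of the mouse. It changed a far smaller share of genes than was called at day 1 and day 3. It therefore does not show how the fits behave on the real libraries. Alternatives were each library left out, pseudocounts of 0.1 and 8, no or another filter, median-ratio rescaling, quantile normalization, no trend, the replicate block, edgeR, DESeq2, no mouse effect and per-length shares; scaling to the library total was added after the data were seen. Promoter sequences are from RefSeq, where 5 of 6 keratins matched.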

Additional observations from a re-analysis of the deposited data

Results flagged for a closer look

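The genotype difference of 5 keratins in enteroids differed from that in crypts by a limma test over the 18 libraries, and that of Krt18 at day 1. For Krt7 the difference was larger by 1.11 at day 1 and by 2.51 at day 3, on the log2 scale. For Krt20 it was larger by 2.18 and 2.60. Krt8 and Krt19 differed from crypts at day 3, by 0.73 and 0.76. Krt23 went the other way, with -2.33 at day 1 and -1.44 at day 3, from a crypt difference of 1.92 with 3 of 3 libraries labelled Mtgr1-/- above all WT libraries. Krt18 was smaller at day 1 by 0.51 on the log2 scale (-0.51).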

How the results depend on the processing

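Of the genotype differences, Krt23 in crypts, Krt20 at day 1 and Krt7, Krt8, Krt18, Krt19 and Krt20 at day 3 were called in all 17 alternatives. The count of keratins called in crypts was 1 with no trend and with edgeR, and 1 to 2 with 1 library left out (1 without WT mouse 1 or 2 or without mouse 1 or 3 labelled Mtgr1-/-). At day 1 it was 1 to 3 with 1 library left out (1 without WT mouse 1 and without mouse 1 labelled Mtgr1-/-). Quantile normalization turned Krt18 at day 1 to -0.34, Krt19 at day 1 to -0.17, and the change from crypts to day 1 to -0.55 for Krt8 (adjusted p = 0.0494, limma) and -0.67 for Krt19 (adjusted p = 0.0129). It left 3 keratins with a called change from crypts to day 3 and made 1 called between days 1 and 3, as did scaling to the library total (1, Krt18). With 1 library left out, the called changes were 2 to 3 from crypts to day 1, 3 to 5 from crypts to day 3 and 0 to 2 between days 1 and 3. The Krt18 change from crypts to day 1 was not called without any 1 of 5 mice, all but WT mouse 2 (adjusted p = 0.0646 to 0.182). Per transcript length, the type II share at day 1 differed by -2.62 points, that of Krt18 at day 1 by -4.00, and at day 3 those of Krt7, Krt8 and Krt19 by 1.75, -4.02 and -0.354. The cause of these changes was not tested. The replicate block, which pairs libraries of 1 mouse number, called 4 keratins at day 1 (Krt8 added, adjusted p = 0.0142, limma) and changed no other keratin call. In the other gene lists it called 1 transcription factor and 2 other intermediate filament genes lower in crypts and 5 tuft genes lower at day 1, against 0, 1 and 4, and over all genes at day 1 it called 8027 instead of 7413. Counts of calls over all genes in crypts were 614, with 239 by edgeR, 1217 by DESeq2, and 176, 211, 310 and 379 without WT mouse 1, WT mouse 2, and mice 1 and 3 labelled Mtgr1-/-. Depth limits the values of few counts, such as Krt23 in WT crypts, with 82.2 to 92.1 normalized counts.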
